A study of Mus musculus with 18 samples.

Results

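DNA methylation and demethylation enzymes were followed in mouse embryonic stem cells (ES), in differentiated cells derived from them (ED), and in both after ionizing radiation (IR). The set was 8 genes chosen by name, namely the methyltransferases Dnmt1, Dnmt3a and Dnmt3b, the cofactors Dnmt3l and Uhrf1, and the dioxygenases Tet1, Tet2 and Tet3. A probe was taken as theirs where its transcript accession maps to the gene in RefSeq, which gave 15 of the 37246 probes for 6 of the 8 genes, out of 34304 gene names in all. Of these, 1 probe was for Dnmt1, 4 for Uhrf1, 2 for Dnmt3a, 5 for Dnmt3b, 2 for Dnmt3l and 1 for Tet2. Tet1 and Tet3 were matched by no probe and were not analysed here.

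Methyl groups on the cytosine of CG pairs are copied to the new strand after replication by Dnmt1, which Uhrf1 brings to hemimethylated DNA. Dnmt3a and Dnmt3b place methyl groups where there were none, and Dnmt3l, which has no activity of its own, binds and stimulates them. Tet enzymes oxidize methylcytosine, which leads to its removal. Embryonic stem cells are known for high Dnmt3b, Dnmt3l and Tet levels, and Dnmt3l is otherwise known mainly from germ cells.

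Each of 6 groups had 3 samples, each on its own one-color Agilent array with Cy3-labeled cRNA of total RNA. Early-passage ES cells were kept with leukemia inhibitory factor and without feeder cells, and isogenic ED cells were cultured without that factor until stem cell markers were lost. Neither received IR in the groups ES and ED. Both received 10 Gy and were collected after 15 min in the groups ESRE and EDRE (radiation early) and after 4 h in ESRL and EDRL (radiation late). The labels speak of triplicates without saying that they were separate cultures, so the p-values measure only the spread between these samples. ED cells are a bulk population with no sort, in which fewer cells of a type and less RNA per cell cannot be told apart.

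Signals are given as read by the scanner software after background subtraction, and levels as the log2 signal minus that of the array's 75th percentile, where 0 is a probe as bright as that percentile. A probe was called where its adjusted p (limma, Benjamini-Hochberg over all probes tested) was under 0.05 and its log2 change was over 1 in size, and a gene where at least 1 of its probes was. The 75th percentile lay between 2806 and 4268 except for EDRE replicates 2 and 3 (875 and 1155) and ESRL replicate 1 (1952). On these 2 EDRE arrays 24.4% and 23.8% of the spots were marked as outliers by the scanner software and not used, against 3.33% to 11.1% elsewhere, which left 1 usable EDRE spot at the brightest probes of Dnmt1, Uhrf1, Tet2 and Dnmt3a. Of 7 stem cell markers tested, 6 were lower in ED than in ES, among them Pou5f1, with a log2 change of -10.29 (SE 0.28), and Klf4 was at 0.05 (SE 0.23). The summed level of the stem cell markers was 244 to 282 times the 75th percentile on the ES arrays and 17.5 to 23 times on the ED arrays, and that of the mesenchymal markers 60.6 to 73.4 times and 466 to 592 times. Of 6 mesenchymal markers tested 5 were higher in ED, while Thy1 was at least 388-fold lower and not well above background on any ED array. All 4 trophoblast markers were lower, with a summed level of 3.76 to 4.26 times on the ES arrays and 0.104 to 0.13 times on the ED arrays. On each of the 18 arrays all 15 probes stood well above background, and none was saturated.

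The regions around the transcription starts of the 3 genes with the largest falls in ED cells are shown so that the CG pairs on which the enzymes themselves act can be read beside the values. They run from 250 bases before to 50 bases after the start, 5′ to 3′, as RefSeq gives them for GRCm38.p6, and capitals mark each CG pair.
Dnmt3l, first start, chr10:78042037-78042336, plus strand: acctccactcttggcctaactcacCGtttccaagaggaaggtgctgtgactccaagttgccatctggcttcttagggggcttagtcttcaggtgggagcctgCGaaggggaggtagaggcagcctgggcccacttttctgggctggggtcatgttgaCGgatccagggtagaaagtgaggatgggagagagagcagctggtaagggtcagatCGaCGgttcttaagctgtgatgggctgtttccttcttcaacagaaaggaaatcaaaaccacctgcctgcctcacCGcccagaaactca
Dnmt3l, middle start, chr10:78049592-78049891, plus strand: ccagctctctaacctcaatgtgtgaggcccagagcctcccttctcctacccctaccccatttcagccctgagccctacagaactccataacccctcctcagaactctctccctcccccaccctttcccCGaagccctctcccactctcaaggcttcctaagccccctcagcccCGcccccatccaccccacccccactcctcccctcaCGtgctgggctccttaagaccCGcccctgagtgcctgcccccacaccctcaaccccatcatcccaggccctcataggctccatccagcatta
Dnmt3l, last start, chr10:78055085-78055384, plus strand: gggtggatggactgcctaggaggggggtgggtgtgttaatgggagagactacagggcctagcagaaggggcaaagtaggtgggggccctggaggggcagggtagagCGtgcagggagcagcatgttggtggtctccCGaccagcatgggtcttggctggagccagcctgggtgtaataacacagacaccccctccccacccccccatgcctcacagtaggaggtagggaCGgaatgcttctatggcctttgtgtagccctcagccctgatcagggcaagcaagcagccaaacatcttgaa
Dnmt3b, chr2:153649199-153649498, plus strand: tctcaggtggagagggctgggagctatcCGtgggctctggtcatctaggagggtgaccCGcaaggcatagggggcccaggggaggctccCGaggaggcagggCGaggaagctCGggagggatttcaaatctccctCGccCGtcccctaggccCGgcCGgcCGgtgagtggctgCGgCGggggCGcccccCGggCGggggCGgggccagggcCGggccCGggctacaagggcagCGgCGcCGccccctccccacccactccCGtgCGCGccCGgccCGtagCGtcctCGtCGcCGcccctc
Tet2, chr3:133544341-133544640, minus strand: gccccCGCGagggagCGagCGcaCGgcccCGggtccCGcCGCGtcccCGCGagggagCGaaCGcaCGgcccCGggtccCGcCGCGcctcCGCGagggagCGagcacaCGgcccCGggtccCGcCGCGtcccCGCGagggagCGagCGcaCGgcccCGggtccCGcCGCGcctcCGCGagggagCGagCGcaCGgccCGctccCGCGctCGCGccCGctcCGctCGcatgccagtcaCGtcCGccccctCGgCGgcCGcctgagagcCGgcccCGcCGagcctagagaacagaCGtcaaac
The windows at the 3 starts of Dnmt3l held 6, 4 and 3 CG pairs, fewer than the median of 7 over all 32851 promoters of the reference. Dnmt3b held 30, more than 88.3% of the promoters, and Tet2 held 57, more than 99.8% of them. At least 1 CG pair was present in 94.6% of all promoters. Among the genes that fell less or not at all, Dnmt1 held between 2 and 33 CG pairs over 3 starts, Uhrf1 held 12 and 33 over its starts, and Dnmt3a held 18 to 47. The letters TTTGGCGC (an E2F site, either strand), found in 0.514% of all promoters, occurred once, at the last start of Dnmt1. The other E2F letters TTTCCCGC (1.07% of all promoters) and the octamer ATGCAAAT (1.74%) occurred in none of the 15 windows of the 8 genes. GGGCGG, the GC box, was present in 35.7% of all promoters, 4 times in the Dnmt3b window, once in that of Tet2, and once and 2 times at the first and middle starts of Dnmt3l. These matches describe letters only.

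The question of the comparison between the cell types was which of these enzymes are differently expressed once ES cells have differentiated. In unirradiated cells 4 of the 6 genes with a probe were lower in ED than in ES and 0 were higher: Dnmt3l, Dnmt3b, Tet2 and Uhrf1. Over all genes tested 26.7% were lower by the same rule. As any probe can call a gene, the share is not fully alike, with 28636 probes for 26243 genes against 14 for these 6. By its brightest probe (-0.99) Uhrf1 was not called. The same 4 genes were lower, and 0 higher, in EDRE against ESRE, where 28.0% of all genes were lower, and in EDRL against ESRL, where 25.0% were, and neither of these comparisons shares an array with the first. In EDRE against ESRE the calls for Tet2 and Uhrf1 rest on probes with 1 usable EDRE spot, for which the spread between arrays comes from the other groups, and the Uhrf1 probe with 2 usable EDRE spots (NM_001111080, -0.93) was not called. By the same rule 14.9%, 18.6% and 24.5% of all genes were higher in the 3 comparisons in this order. Without EDRE replicate 1, where Dnmt1 and Tet2 then had no usable spot, 2 genes, Dnmt3l and Dnmt3b, were called in EDRE against ESRE. In that fit 5751 of 16909 of all genes were lower. Dnmt1 and Dnmt3a were called in none of the 3.

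**Figure D1:**
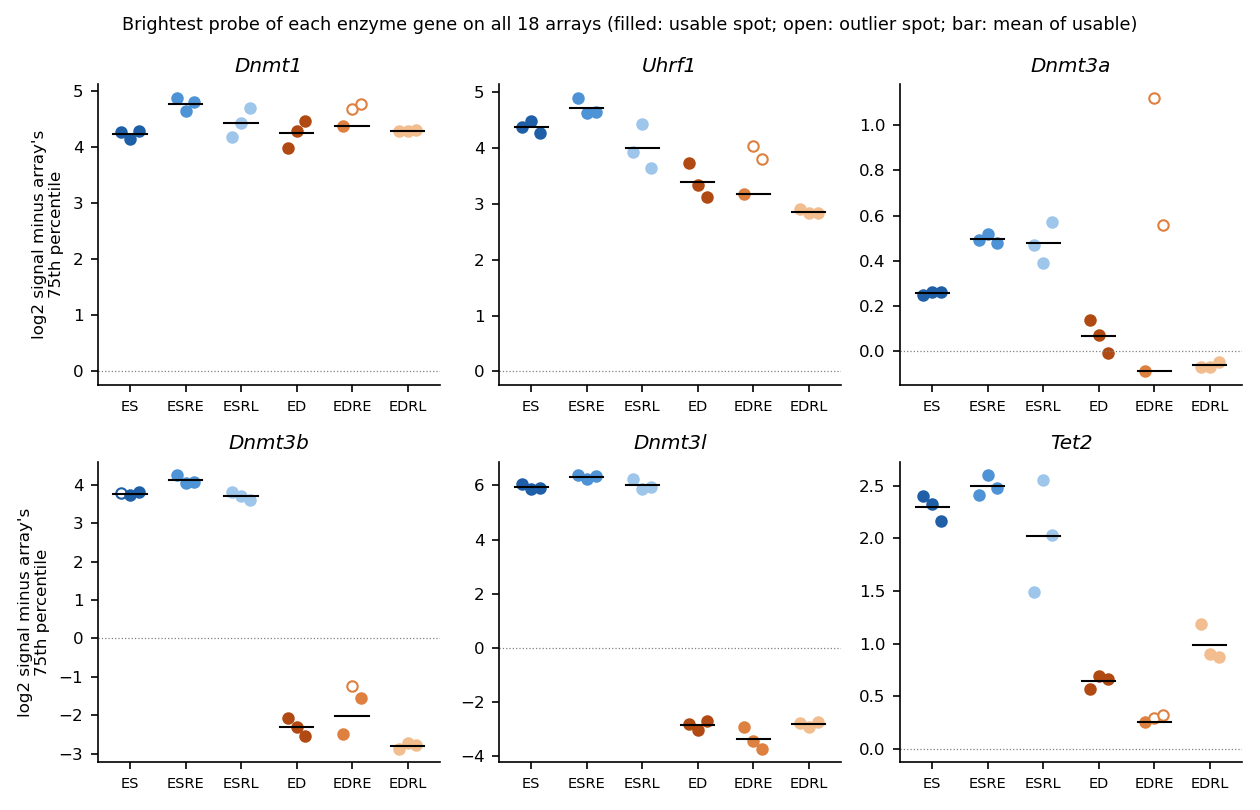
Level of the brightest probe of each gene (log2 signal minus the array's 75th percentile, vertical axis, scaled for each panel) on each of the 18 arrays, by group. Filled points are usable spots, open points are spots marked as outliers, and bars are means of the usable spots. For Dnmt3l and Dnmt3b all ES, ESRE and ESRL arrays lie above 3.6 and all ED, EDRE and EDRL arrays below -1.2.

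Dnmt3l (chr10:78042287-78063622 in GRCm38.p6), the stimulating cofactor without catalytic activity, had the largest difference. Its brightest probe (NM_001081695) read 234200, 189600 and 176700 in ES and 612, 470.4 and 539.5 in ED. All 9 arrays of ES cells, irradiated or not, read 147200 or more, and all 9 arrays of ED cells read 612 or less, so the cell types did not overlap. The level fell from 5.95 ± 0.09 to -2.83 ± 0.16 (SD, n = 3 each), a log2 change of -8.78 (SE 0.19) or 439-fold (limma, adjusted p = 9.64e-14). It was -9.66 (SE 0.19) in EDRE against ESRE and -8.82 (SE 0.19) in EDRL against ESRL. The other probe (NM_019448) lay between -8.85 and -9.77 in the 3 comparisons.

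Dnmt3b (chr2:153649411-153687730), a de novo methyltransferase, came next. Its brightest probe (NM_001003963) read 48150, 42770 and 40810 in ES, the first of them an outlier spot, and 1007, 760.4 and 598.4 in ED. Levels were 3.77 ± 0.06 (SD, n = 2) in ES and -2.31 ± 0.23 (SD, n = 3) in ED. The log2 change was -6.08 (SE 0.24), or 67.5-fold (limma, adjusted p = 2.26e-10). After IR it was -6.13 (SE 0.23) at 15 min and -6.49 (SE 0.21) at 4 h.

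The 5 probes of Dnmt3b stand for different transcripts of the gene, and they gave nearly the same values. In unirradiated cells 4 of them could be tested and lay between -5.80 and -6.08, though 3 of these had 1 usable ES spot. The fifth, NM_001122997, had no usable ES spot, and had changes of -6.27 (SE 0.20) and -6.23 (SE 0.20) in the irradiated comparisons. Each of the 5 probes was called lower in both irradiated comparisons.

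Tet2 (chr3:133463677-133545136), the only dioxygenase with a probe, fell less. It read 18590, 16240 and 13130 in ES and 6318, 6114 and 5477 in ED, with no overlap. The level was 2.30 ± 0.11 in ES and 0.64 ± 0.07 in ED (SD, n = 3 each), a log2 change of -1.66 (SE 0.22) or 3.16-fold (limma, adjusted p = 3.7e-05). In EDRE against ESRE, with 1 usable EDRE spot, it was -2.24 (SE 0.31). In EDRL against ESRL it was -1.04 (SE 0.22), and there the ESRL arrays spread widely, at 1.49, 2.56 and 2.03 against 1.19, 0.90 and 0.87 in EDRL, with replicate 1 of ESRL, which was scanned alone and on another scanner, the lowest of its group. The call for Tet2 at 4 h was lost without ESRL replicate 2 (-0.77), EDRL replicate 2 (-0.99) or EDRL replicate 3 (-0.98). It was also lost with normexp background correction (-0.96), which fits the background of each array.

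Uhrf1 (chr17:56303337-56323486), which recruits Dnmt1 to replicated DNA, was lower by about the size of the limit. Its brightest probe (NM_001111078) read 73370, 72280 and 56230 in ES and 56500, 37870 and 30090 in ED. In signal the highest ED array lay just above the lowest ES array, and in level the groups did not overlap (3.12 to 3.73 in ED, 4.27 to 4.48 in ES). That probe had a log2 change of -0.99 (SE 0.21), just short of the limit (limma, adjusted p = 0.00147), while the 4 probes lay between -0.89 and -1.13 and 2 of them were called. In EDRE against ESRE the brightest probe was -1.54 (SE 0.29, 1 usable EDRE spot), and in EDRL against ESRL -1.14 (SE 0.21). At 4 h the 4 probes lay between -0.85 and -1.41, and 2 of them were called.

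Dnmt1 (chr9:20907206-20959888), the maintenance methyltransferase, had levels of 4.24 ± 0.08 in ES and 4.25 ± 0.24 in ED (SD, n = 3 each). Its signals were 68090, 57580 and 57130 in ES and 67830, 74060 and 76710 in ED, which overlapped. The log2 change was 0.01 (SE 0.17). It was -0.40 (SE 0.23) in EDRE against ESRE and -0.14 (SE 0.17) in EDRL against ESRL, and none of the 3 passed the test.

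Dnmt3a (chr12:3801559-3914443), the other de novo methyltransferase, differed by -0.19 (SE 0.12) at its brightest probe (NM_007872), from 0.26 ± 0.01 in ES to 0.07 ± 0.07 in ED (SD, n = 3 each). Its signals were 4189, 3886 and 3484 in ES and 4688, 3977 and 3442 in ED. In EDRE against ESRE the change was -0.59 (SE 0.16, 1 usable EDRE spot; limma, adjusted p = 0.0076), and in EDRL against ESRL -0.54 (SE 0.12; limma, adjusted p = 0.00134), both under the limit on size. The other probe (NM_153743) gave -0.19, 0.30 and -0.55.

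**Figure D2:**
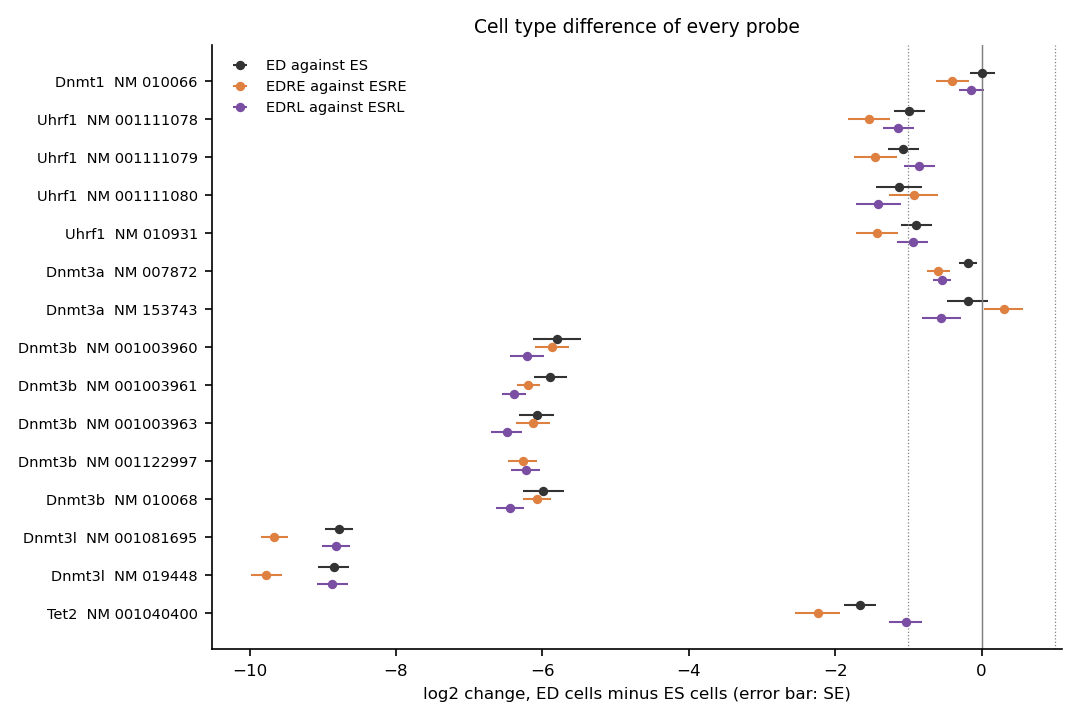
Log2 change of ED cells against ES cells (horizontal axis, with SE as error bars) for all 15 probes, without IR and at 15 min and 4 h after IR. Dotted lines mark a log2 change of 1 in size. The 2 Dnmt3l and 5 Dnmt3b probes lie between -5.80 and -9.77, and those of Dnmt1 and Dnmt3a between -0.59 and 0.30.

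Over all probes tested in ED against ES the median change was -0.19 with arrays set to their 75th percentile and 0.46 with arrays set to their median, so that the split of all genes called moved from 3905 higher and 6999 lower to 7023 higher and 4873 lower. Both scalings take a constant from each array, so a change relative to the median of all probes is nearly the same under both by construction. Relative to that median Dnmt3a changed by 0 and Dnmt1 by 0.20. With quantile normalization, which is not such a shift, these values were -0.44 and -0.24. On the median scale itself the changes were 0.66 for Dnmt1, 0.46 for Dnmt3a, -0.34 for Uhrf1, -1.01 for Tet2, -5.41 for Dnmt3b and -8.13 for Dnmt3l. The size of the change of Dnmt1, the direction of Dnmt3a and the call for Uhrf1 therefore depended on the scaling. In EDRL against ESRL the calls for Tet2 (-0.56) and Uhrf1 (-0.66) were also lost on the median scale. In EDRE against ESRE, where the median of all probes moved from -0.17 to 0.60, Uhrf1 was no longer called and Dnmt3a was, with its probe NM_153743 higher by 1.01. The split of all genes moved there from 4155 higher and 6248 lower to 8172 and 4043, and in EDRL against ESRL from 5901 and 6014 to 8845 and 4601. No scan time held a group with its control, but ED 1 to 3 were scanned with ESRE replicate 3, and within that scan time the difference was -9.17 for Dnmt3l, -6.38 for Dnmt3b, -1.84 for Tet2, -1.25 for Uhrf1, -0.55 for Dnmt1 and -0.41 for Dnmt3a, which also holds the difference of 15 min after IR.

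**Figure D3:**
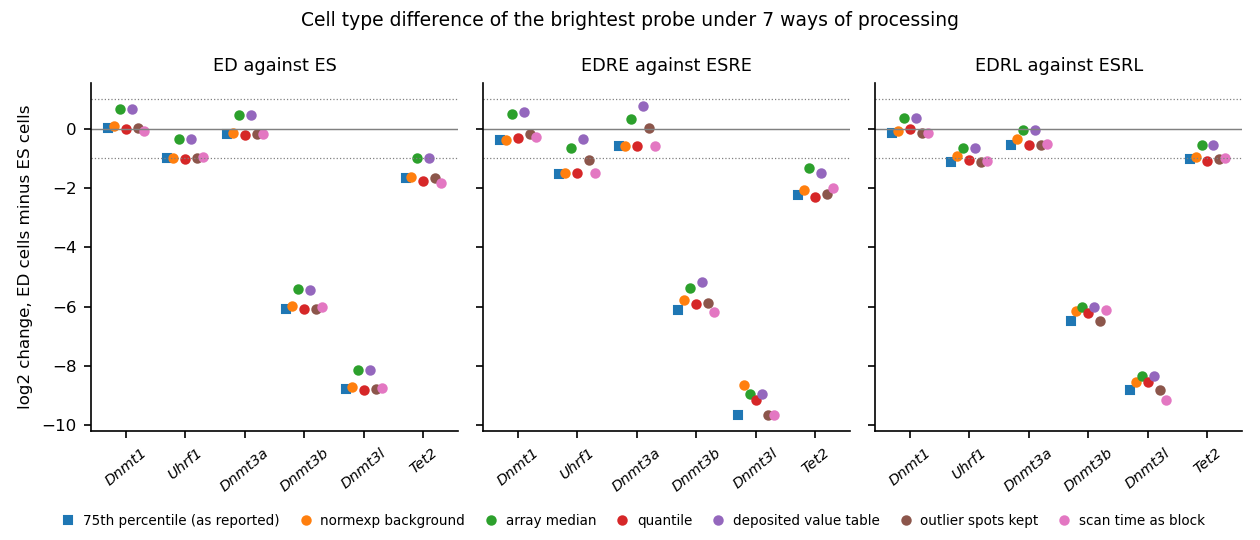
Log2 change of ED cells against ES cells (vertical axis) of the brightest probe of each gene in the 3 comparisons, under 7 ways of processing. Dotted lines mark a log2 change of 1 in size. Dnmt3b and Dnmt3l stay below -5 under all 7, and Dnmt1 and Dnmt3a lie on both sides of 0 in the first and middle panels.

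The comparisons with the unirradiated controls asked whether these genes respond to 10 Gy within 4 h. In each of them 0 of the 6 genes was called. Over all genes the share called was 0.462% in ESRE against ES and 7.59% in ESRL against ES. It was 5.20% in EDRE against ED and 1.66% in EDRL against ED. No irradiated group shared a scan time with its control, and beyond the group means arrays of the same scan time correlated at 0.81. With scan time as a random block 0, 0, 1 and 33 of all genes were called in this order. In these shares IR and scan time cannot be told apart. The 24 changes of the brightest probes ranged from -0.53 to 0.53, with a lowest adjusted p of 0.0889 (limma). At an unadjusted p under 0.05, limma found 1 of 14 member probes in ESRE against ES and 2 of 14 in ESRL against ES. It found 3 of 15 in EDRE against ED and 7 of 15 in EDRL against ED. Over all probes tested the counts were 2633 of 27875, 6985 of 27966, 6375 of 24490 and 3543 of 25412 in this order. On the same values the methods' t-test also called 0 of the 6 genes in each. It gave 7 of 11, 1 of 11, 0 of 9 and 10 of 15 member probes an unadjusted p under 0.05. Over all probes it tested, 6346 of 26578, 4857 of 26588, 2269 of 17766 and 7946 of 24622 had one. After adjustment 1 of the member probes, of Dnmt3a, remained under 0.05 in ESRE against ES. In EDRL against ED 3 did, of Dnmt3b, and all were within the limit on size. Without EDRE replicate 1, which leaves the 2 dim arrays, 2 genes were called in EDRE against ED, Dnmt3a (NM_153743, 1.03) and Uhrf1 (NM_001111080, 1.02). In that fit 5425 of 16978 of all genes were called, against 1166 of 22418 with every array.

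Of the 24 changes, 4 had an unadjusted p under 0.05. Dnmt1 read 68090, 57580 and 57130 in ES and 91160, 70240 and 89500 in ESRE, higher on all 3 irradiated arrays, with a log2 change of 0.53 (SE 0.17; limma, adjusted p = 0.242). Uhrf1 read 21750, 22960 and 22880 in EDRL, below all 3 ED arrays, with a change of -0.53 (SE 0.21; limma, adjusted p = 0.25). Dnmt3b in EDRL (399.1, 489 and 471.4) was also below all 3 ED arrays, by -0.47 (SE 0.21; limma, adjusted p = 0.328). Another of its probes, NM_001003961, was -0.66 (SE 0.16; limma, adjusted p = 0.045), the only member probe that passed the threshold on p after IR, though not that on size.

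Dnmt3l in EDRE read 406.8, 80.67 and 87.32 against 612, 470.4 and 539.5 in ED. The lowest values were those of replicates 2 and 3, the arrays with a low 75th percentile. Relative to that percentile the levels were -2.90, -3.44 and -3.72 in EDRE and -2.80, -3.01 and -2.69 in ED, a change of -0.52 (SE 0.19; limma, adjusted p = 0.0889). Without replicates 2 and 3 the change was -0.07, and with normexp background correction, which fits the background of each array, it was 0.16.

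**Figure D4:**
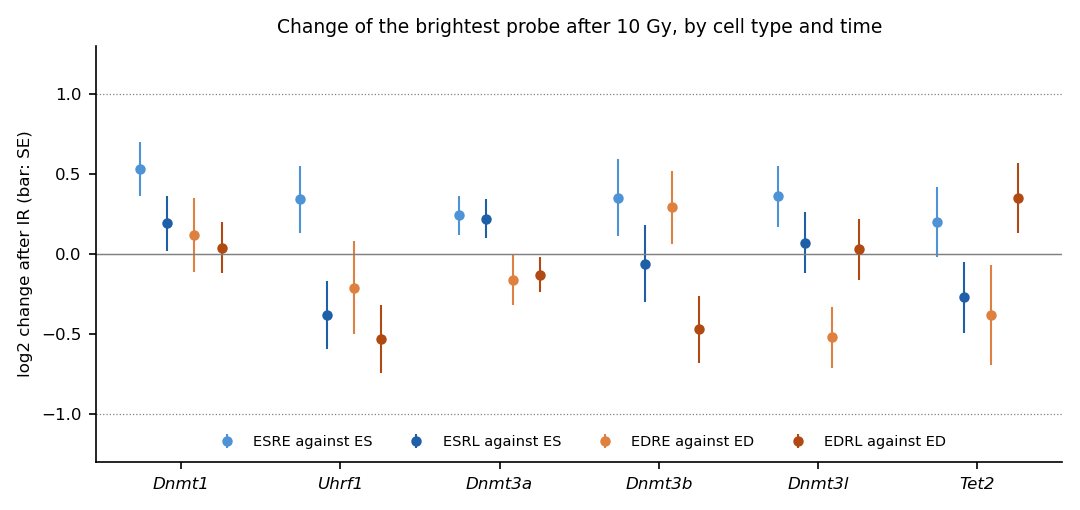
Log2 change of the brightest probe of each gene against its unirradiated control (vertical axis, with SE as error bars), for ES and ED cells at 15 min (ESRE, EDRE) and 4 h (ESRL, EDRL) after 10 Gy. Dotted lines mark a log2 change of 1 in size, and all 24 points lie between -0.53 and 0.53.

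A test of whether the response to IR differed between the cell types also called 0 of the 6 genes at 15 min and 0 at 4 h. Over all genes 2.09% and 1.16% were called, and 0 at both times with scan time as a random block. At 15 min 2 of 14 member probes had an unadjusted p under 0.05, both of Dnmt3l, and at 4 h 0 did. Over all probes tested 5252 of 28098 and 4305 of 28375 did. The brightest Dnmt3l probe had a difference of -0.88 (SE 0.27; limma, adjusted p = 0.104) in the direction of a lower response in ED cells. That value was -0.43 without EDRE replicates 2 and 3, and -1.11 and called without EDRE replicate 1. In the fit without replicate 1, 6135 of 20753 of all genes were called, against 538 of 25788 with every array. The 12 differences of the brightest probes ranged from -0.88 to 0.62.

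Across the 6 groups Dnmt3l was highest in ESRE (6.31), followed by ESRL (6.02) and ES (5.95), which overlapped, and after a step of 8.75 came EDRL, ED and EDRE (-2.80, -2.83 and -3.35), which overlapped too. Dnmt3b ran from ESRE (4.11) over ES and ESRL (3.77 and 3.70, overlapping) to the ED groups after a step of 5.46, with outlier spots included. Tet2 ran from ESRE (2.49) over ES (2.30) and ESRL (2.03), which overlapped, to EDRL (0.99), ED (0.64) and EDRE, and Uhrf1 from ESRE (4.72) to EDRL (2.85). For Dnmt1 each group overlapped its neighbor in the order.

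Genes with the most similar levels over the arrays were sought among 3644 probes detected on all 18. Dnmt3l was followed most closely by Esrrb, a stem cell transcription factor (Pearson r = 0.999 over 18 arrays), and Chchd10 (0.999), and Dnmt3b by Mgarp and Spint2 (0.999 each over 16 arrays). Such values mainly describe the split between the cell types that these genes share. For Tet2 the nearest were Uty (0.977) and Baz2a (0.976), for Uhrf1 Chd1 (0.961) and Trappc8 (0.956), for Dnmt3a AW146154 (0.972) and Gm525 (0.963), and for Dnmt1 Tpt1 (0.903) and Dennd3 (0.891), each over 16 arrays.

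Genes that work with these enzymes differed between the cell types in both directions. Of 18 accessory and targeting factors tested, 10 were lower and 0 higher in ED than in ES. Over all genes 26.7% were lower and 14.9% higher. The median change was -1.04 against -0.19 over all probes. Dppa3, which shields DNA from Uhrf1 and Dnmt1, was not well above background on any ED array and at least 1140-fold lower (limma, adjusted p = 2.07e-11), and Prdm14, which represses the Dnmt3 genes in stem cells, at least 451-fold lower (limma, adjusted p = 4.28e-05, 1 usable ES spot). These bounds set the ES level against the lowest signal well above background on each ED array. Trim28, the corepressor that zinc finger proteins bring to imprinted regions and retroviral repeats, was -1.70 (SE 0.15). In the irradiated comparisons 7 of 15 (1 higher) and 10 of 17 (0 higher) of these factors were lower, where 28.0% and 25.0% of all genes were.

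Among methyl-CpG readers, proteins that bind methylated DNA, 2 of 7 were higher in ED and 2 lower, where 14.9% and 26.7% of all genes were. Zbtb4 was 2.95 (SE 0.48) and Mbd2 1.55 (SE 0.24) higher, and Mbd4, a glycosylase also counted with the excision genes, was -1.12 (SE 0.17). Zbtb38 was not well above background on any ED array and at least 2.35-fold lower. In EDRE against ESRE 5 of 6 readers were higher, where 18.6% of all genes were, and in EDRL against ESRL 4 of 6, where 24.5% were, with 1 lower in each. With arrays set to their median the number of all genes called higher went from 4155 to 8172 and from 5901 to 8845, so that the direction of such counts depends on the scaling. The summed level of the readers was 11.4 to 12.5 times the 75th percentile on the ES arrays and 19.9 to 22.1 times on the ED arrays.

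For the excision of oxidized or deaminated bases, the step that completes demethylation, 6 of 15 genes were lower in ED and 1 higher. Over all genes 26.7% were lower and 14.9% higher, also for the supply genes below. Neil3, a glycosylase, was 2.54 (SE 0.25) higher, and Neil2, another, was at least 141-fold lower and not well above background on any ED array, as was Apobec2 (at least 177-fold, 1 usable ES spot). Parp1, which acts at strand breaks, was -2.15 (SE 0.18). Tdg, the glycosylase for oxidized methylcytosine, was -0.76 (SE 0.60) and did not pass the test. Of the genes that supply methyl donor and 2-oxoglutarate, 2 of 12 were higher, Shmt2 by 2.78 (SE 0.16) and Ahcyl1 by 1.06 (SE 0.16), and 2 lower, Tdh, a threonine dehydrogenase, by -11.22 (SE 0.36) and Shmt1 by -1.54 (SE 0.18).

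**Figure D5:**
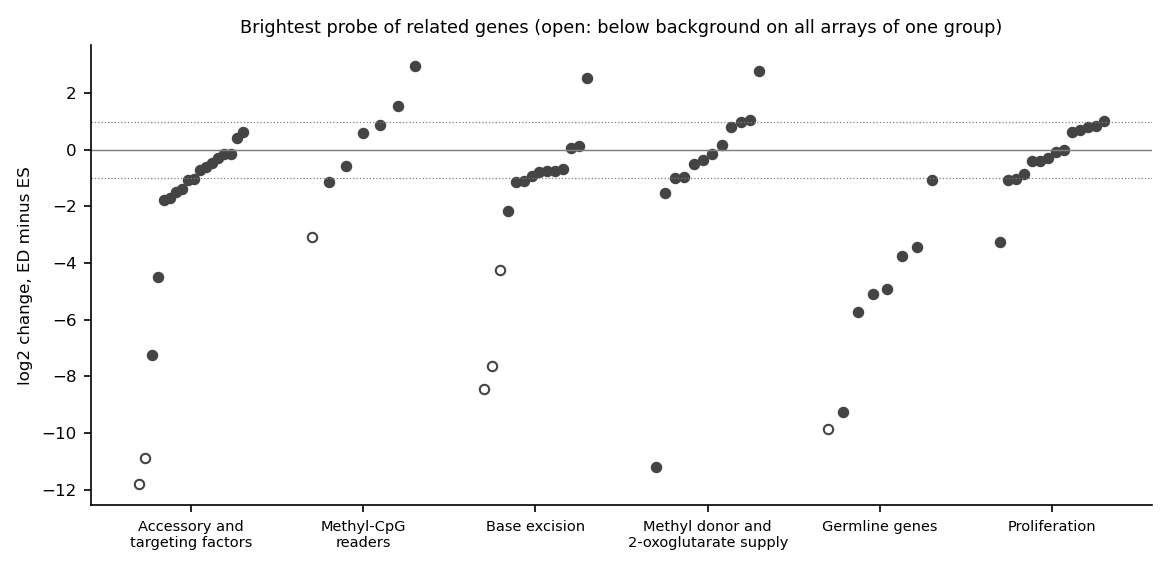
Log2 change of ED against ES (vertical axis) at the brightest probe of each gene tested in 6 lists of related genes, sorted within each list. Open points are genes not well above background on any array of 1 group, whose size depends on the background. Dotted lines mark a log2 change of 1 in size. The 8 germline genes all lie below 0, and the other lists spread to both sides of it.

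Of 10 germline genes known to be silenced by methylation of their promoters, 8 were tested. In ED 8 were lower than in ES, with a median of -5.00. By the same rule 26.7% of all genes were lower, and 3907 of 21357 among genes detected on all arrays of both groups. The list was chosen with earlier results of these data known. A gene tested only because it is detected in ES had to differ, but 6 of the 8 stood well above background in ED as in ES. Mael, a piRNA pathway gene, read 30800 on average in ES and 59.1 in ED, a change of -9.27 (SE 0.34). Ddx4, a germ cell helicase, was at least 225-fold lower (1 usable ES spot) and not well above background on any ED array.

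Uhrf1 and Dnmt1 are known to be expressed mostly in dividing cells, and 16 proliferation genes were therefore measured beside them. Of the 14 tested, Mki67 was 1.02 (SE 0.22) higher in ED, Ccne1 -3.27 (SE 0.27) and Mcm2 -1.08 (SE 0.14), and 11 were not called. The median change was -0.17, close to that of all probes, and over all genes 14.9% were higher and 26.7% lower. With arrays set to their median 5 of the list were called. With that scaling 11886 of 26243 of all genes were called, 7023 higher and 4873 lower. Whether proliferation, the loss of stem cell markers or the markers of other cell types have a part in the differences of Uhrf1, Dnmt3b, Dnmt3l and Tet2 was not tested.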

How the data were processed

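Total RNA of 18 samples was labeled with Cy3 and hybridized to one-color Agilent arrays, 1 array each. Per the file headers the signals were read with Feature Extraction 10.7.3.1 (9.1 in the submitters' processing notes), and the deposited intensity used here is the background-subtracted processed signal. The authors also deposited a table of log2 values, which were found to be the log2 signal with a floor of 5 minus about the array median; its values were an alternative. Genome build and alignment do not apply to arrays, and coordinates and promoters are those of RefSeq for GRCm38.p6.

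Control spots (1417 of 39448 spots per array) and outlier spots were left out, spots of a probe were averaged, and log2 intensities were set to the 75th percentile of each array. All probes were fitted with 1 linear model over the 6 groups in limma 3.58.1 (R 4.3.3), with moderated variances and Benjamini-Hochberg adjustment over all probes tested. A probe was tested if all 3 arrays of 1 or both groups compared gave it well above background. Precision is limited by having 3 arrays per group. The members and the lists of related genes were chosen with earlier results of these data known. From each list, the genes with the 2 largest rises and the 2 largest falls among those called were named, and for each member the 2 genes with the most similar levels; Trim28, Parp1, Tdg and Klf4 fell outside this rule and were chosen after their values were seen, and 1 gene that the rule names is not reported here. On simulated data for ED against ES (28636 probes, 200 changed) 63.3% of changes of 1.5 and 96.5% of changes of 3 (log2) were recovered, with 13 false calls. The simulated noise was independent between arrays, and changes were placed only in probes well above background on every array. In the data, arrays of the same scan time correlated at 0.81 beyond the group means, and ED and ES shared no scan time. The simulated rates therefore do not give the recovery or the false calls of the comparisons reported here. Samples that share a replicate number correlated above 0.1 in 4 of 21 pairs, so they were not treated as paired. Alternatives were other scalings and background corrections, filters, blocks, single arrays left out, and the methods' t-test.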

Additional observations from a re-analysis of the deposited data

How the results depend on the processing

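In ED against ES the number of genes called was 4 for each array left out, in EDRE against ESRE 2 (without EDRE replicate 1) to 4 and in EDRL against ESRL 3 to 4. After IR it was 0 to 2 in EDRE against ED, 0 to 1 in the 15 min test of cell types, and 0 in the others. Without EDRE replicate 1 Dnmt3a (NM_153743, 1.03) and Uhrf1 (NM_001111080, 1.02) were called in EDRE against ED, and Dnmt3l (-1.11) in the 15 min test. Without that array 5425 of 16978 of all genes were called in EDRE against ED and 6135 of 20753 in the 15 min test. The methods' t-test called 2 genes in EDRE against ESRE, and 5479 of 16568 of all genes. In EDRL against ESRL 2 were called with arrays set to their median, 2 in the deposited value table and 2 with scan time as a random block. Of all genes 13429 of 24065, 12636 of 22804 and 8025 of 24065 were called there in this order, against 11897 of 24065 as reported. With normexp background correction Tet2 (-0.96) was not called there. With no limit on size 1 was called in EDRL against ED, and 569 of 23223 of all genes. In ED against ES 3 were called with arrays set to their median, in the value table and with the scan time block. Uhrf1 was lost in each, as it was in EDRE against ESRE with that block (3 called). Of all genes 11886 of 26243, 11110 of 24806 and 5494 of 26243 were called in ED against ES in this order, against 10898 of 26243 as reported. In EDRE against ESRE the block called 7413 of 22283, against 10394 of 22283 as reported. With the replicate block the counts were 4, 4 and 4 in the cell type comparisons and 0 in the others, so it changed no count. Leaving out both dim EDRE arrays, chosen after seeing the data, changed no count.

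Some directions turned. Dnmt1 in ED against ES was -0.02 with quantile normalization and -0.09 with the scan time block, and -0.10 to 0.14 with an array left out. With arrays set to their median and in the value table, Dnmt1 was 0.50 and 0.54 in EDRE against ESRE and 0.34 and 0.34 in EDRL against ESRL. Likewise Dnmt3a was 0.46 and 0.46 in ED against ES and 0.32 and 0.75 in EDRE against ESRE, against -0.59 as reported and 0.03 with outlier spots kept. With normexp Dnmt3l was 0.16 in EDRE against ED, against -0.52, and 0.05 in the 15 min test, against -0.88. The cause of these changes was not tested. The 2 dim EDRE arrays left few usable spots.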
